A study of Homo sapiens with 6 samples.

Results

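The genes described here are 7 metallothioneins (MT1A, MT1E, MT1F, MT1G, MT1M, MT1X and MT2A), the metal-sensing transcription factor MTF1 and the zinc exporter SLC30A1, which make up 9 of the 57905 genes in the deposited table. They were selected by gene symbol. RNA-seq of poly-A RNA was analysed for 6 libraries of HK-2, an immortalized human cell line derived from the proximal tubule of the kidney, labelled as wild type. In 3 libraries the cells had been transfected with a pool of control siRNA that targets no gene, and in the other 3 with a pool of siRNA against INO80, the ATPase of a chromatin remodeling complex. RNA was collected after 48 h of transfection in both groups, and all libraries come from 1 cell line and 1 siRNA pool per group. The comparison asks how mRNA levels change when INO80 is knocked down in tubular cells.

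Metallothioneins are small proteins in which cysteines hold zinc, copper and cadmium ions through their sulfur atoms. MTF1 binds zinc through its zinc fingers and then activates genes that carry metal response elements, among them the metallothionein genes and SLC30A1. SLC30A1 encodes ZnT1, which moves zinc from the cytosol out through the plasma membrane. In the proximal tubule, metallothioneins are known for holding cadmium that is taken up from the filtrate.

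The 7 metallothioneins lay together on chromosome 16 between 56642111 and 56718108 (GRCh37, the build of the table's coordinates), a span of 75998 bases, in the order MT2A, MT1E, MT1M, MT1A, MT1F, MT1G and MT1X, with MT1G alone on the minus strand. MTF1 (1:38275239-38325292) and SLC30A1 (1:211744910-211752084) lay on the minus strand of chromosome 1. The metallothioneins are near-identical copies, so how far their reads can be told apart bears on every value below. The coding sequences of 6 reference transcripts (GENCODE 44) are shown from start codon to last codon without the stop codon, with capitals where a base differs from MT2A in a pairwise alignment.
MT2A: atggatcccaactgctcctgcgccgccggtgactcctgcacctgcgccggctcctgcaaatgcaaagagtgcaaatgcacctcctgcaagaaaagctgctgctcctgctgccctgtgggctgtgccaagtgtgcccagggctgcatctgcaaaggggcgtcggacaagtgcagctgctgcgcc
MT1E: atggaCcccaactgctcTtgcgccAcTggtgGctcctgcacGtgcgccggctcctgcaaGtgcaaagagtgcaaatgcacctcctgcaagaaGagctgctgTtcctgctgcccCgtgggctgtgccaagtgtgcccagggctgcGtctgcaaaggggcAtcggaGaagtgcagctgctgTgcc
MT1F: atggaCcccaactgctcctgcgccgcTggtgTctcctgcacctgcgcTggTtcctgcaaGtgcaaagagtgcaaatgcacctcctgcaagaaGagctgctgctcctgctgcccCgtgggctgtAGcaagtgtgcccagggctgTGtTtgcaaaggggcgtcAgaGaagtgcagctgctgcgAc
MT1G: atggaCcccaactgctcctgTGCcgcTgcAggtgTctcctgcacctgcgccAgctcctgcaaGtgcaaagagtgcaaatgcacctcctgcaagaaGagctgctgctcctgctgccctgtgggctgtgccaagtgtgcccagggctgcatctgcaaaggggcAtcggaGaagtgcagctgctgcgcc
MT1M: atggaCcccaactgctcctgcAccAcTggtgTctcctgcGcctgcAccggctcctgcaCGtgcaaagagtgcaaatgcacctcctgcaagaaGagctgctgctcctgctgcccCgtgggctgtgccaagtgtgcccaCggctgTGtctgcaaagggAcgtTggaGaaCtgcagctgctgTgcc
MT1X: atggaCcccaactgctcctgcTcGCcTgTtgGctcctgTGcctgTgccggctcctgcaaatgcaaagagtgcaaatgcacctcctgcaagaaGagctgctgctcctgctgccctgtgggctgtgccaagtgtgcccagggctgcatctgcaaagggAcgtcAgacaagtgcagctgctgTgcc

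Each of these sequences held 61 codons, 62 in MT1G, and 20 codons in each encoded cysteine. The 15 pairs were 88.5% (MT1F and MT1X) to 93.5% (MT1G and MT2A) identical, with a median of 91.3%. MT1G was the nearest to MT2A with 12 differing bases and MT1M the farthest with 19. Over whole mRNAs the copies were easier to tell apart. Of all windows of 50 bases, 5.34% in MT1E, 6.12% in MT1F, 11.1% in MT2A, 14.6% in MT1M and 19.9% in MT1G were found exactly in a transcript of another gene, against 0 in SLC30A1. MT1X was the exception with 51.0%. At 100 bases MT1X was the only one of these 6 with shared windows (22.0%), all of them with the long noncoding gene RP11-343H19.2, which overlaps MT1X on the same strand and had 0 reads in all 6 libraries. Reads of 150 bases therefore identify most of these mRNAs. However, how reads with several matches, or reads on overlapping genes, were treated is not given in the sources used here. The values of single copies are uncertain to that extent. MT1M and MTF1 also overlap other annotated genes, none of which had more than 3 reads in any library.

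The 250 bases before the start site were available for 4 of the 9 genes in RefSeq (GRCh38.p14): MT2A, MT1X, SLC30A1 and MTF1. No sequence is shown for MT1A, MT1E, MT1F, MT1G and MT1M. They were searched on both strands for TGCACNC and TGCGCNC, the core letters of the metal response element. The windows of MT2A (chr16:56608334-56608583, plus strand), MT1X (chr16:56682220-56682469, plus strand) and SLC30A1 (chr1:211579162-211579411, minus strand) are printed 5′ to 3′ in the direction of transcription, with the matches in capitals.
MT2A: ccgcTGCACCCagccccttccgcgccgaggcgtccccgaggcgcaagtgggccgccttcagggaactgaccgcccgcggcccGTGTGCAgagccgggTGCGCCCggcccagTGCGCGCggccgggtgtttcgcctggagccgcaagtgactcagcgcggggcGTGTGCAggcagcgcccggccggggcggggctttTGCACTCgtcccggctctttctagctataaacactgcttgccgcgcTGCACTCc
MT1X: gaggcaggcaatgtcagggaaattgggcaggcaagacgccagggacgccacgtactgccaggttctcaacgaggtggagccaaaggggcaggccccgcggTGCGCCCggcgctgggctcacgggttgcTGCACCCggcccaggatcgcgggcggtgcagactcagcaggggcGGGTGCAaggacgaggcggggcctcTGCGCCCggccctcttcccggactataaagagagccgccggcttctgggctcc
SLC30A1: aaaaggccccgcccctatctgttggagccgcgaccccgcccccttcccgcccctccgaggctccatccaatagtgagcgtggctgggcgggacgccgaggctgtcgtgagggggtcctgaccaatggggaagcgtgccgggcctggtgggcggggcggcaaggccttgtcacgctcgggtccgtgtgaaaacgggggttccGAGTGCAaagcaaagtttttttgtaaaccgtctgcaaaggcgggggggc

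MT2A held 7 matches, MT1X 4 and SLC30A1 1. The window of MTF1 itself (chr1:37859593-37859842, minus strand) held 0. Among 35116 windows of the same length, 24.8% held at least 1 match, 0.370% at least 4 and 0.0313% at least 7. A match of letters is a description and does not show that MTF1 binds there.

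The reads counted on genes numbered 16829273 to 20311588 in the control libraries and 20678008 to 23784599 in the knockdown libraries, which were thus deeper. Levels are given in CPM, that is, the gene's share of all reads counted on genes, after scaling for composition. INO80 itself had 46.2, 49.2 and 53.9 CPM in control replicates 1, 2 and 3 and 13.8, 12.0 and 14.1 CPM after INO80 siRNA, a log2 fold change of -1.90 (SE 0.0956, adjusted p = 0.000161). The labelled cell type was only partly visible in its markers. Of 9 proximal tubule markers, 3 passed the filter on low counts (GGT1, SLC3A1 and SLC5A2), while HNF4A had 0 reads and LRP2, the endocytic receptor megalin, at most 1 read in any library. In contrast, 7 of 8 general markers of tubular epithelium passed, among them PAX8 and KRT18, and the 6 markers of other nephron segments had 0 reads throughout. Markers of endothelium summed to at most 0.147 CPM and those of leukocytes to between 0.548 and 1.24 CPM. In bulk RNA, fewer cells of a type and less RNA per cell cannot be told apart. The labels give replicate numbers but do not say whether these are separate cultures, so p-values measure the spread between these libraries, which may be technical.

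MT2A carried most of the metallothionein mRNA. In FPKM, a level per length of exon and per depth, MT2A stood at 424 ± 67.7 in control cells (SD, n = 3), above 99.7% of the tested genes. Comparison between genes in this unit depends on the exonic length used. MT1E followed with 175 ± 25.6 FPKM, and the control ranges of MT2A and MT1E did not overlap each other or that of any gene below them. SLC30A1 (22.5 ± 2.78 FPKM), MT1F (22.0 ± 3.68 FPKM) and MT1X (19.6 ± 1.73 FPKM) came next, and neighbours in this order overlapped. MT1M had 12.0 ± 2.45 FPKM, MT1G 7.49 ± 3.01 FPKM, MTF1 5.11 ± 0.226 FPKM and MT1A 4.22 ± 1.55 FPKM, again with overlap between neighbours.

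This order depended on the length behind each value. The table's exonic length of MT1F (1889 bases) and MT1X (1773 bases) was over 4 times the length of the reference mRNA with 3 exons (425 and 404 bases), and that of MT2A (1299 bases) 3.24 times. Per length of that mRNA instead, in the same unit, MT2A stood at 1373 ± 219, MT1E at 262 ± 38.3, MT1F at 97.7 ± 16.4, MT1X at 86.0 ± 7.60, MT1M at 28.4 ± 5.80, SLC30A1 at 20.9 ± 2.58 and MT1G at 13.7 ± 5.50 (SD, n = 3, control siRNA). On this scale SLC30A1 lay below MT1M, with overlapping ranges, rather than beside MT1F. MT2A and MT1E remained the highest on both scales.

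The table holds 20 metallothionein genes and pseudogenes, and of the 13 not listed above, 6 had 0 reads in every library (MT3, MT4, MT1H, MT1DP, MT1CP and MT1HL1). A further 4 had 1 to 6 reads in all 6 libraries together. The processed pseudogene MT2P1 on chromosome 4 had 285 to 605 reads per library. Over its short exonic length of 186 bases this gave 98.0 ± 30.2 FPKM in control cells (SD, n = 3), below MT2A and MT1E. In this unit it lay above the other genes described here. Per length of mRNA MT1F stood at 97.7 ± 16.4, close to that value. The reference transcript of MT2P1 (183 bases) is about as long as its exonic length. In control cells MT2P1 had 18.4 ± 6.03 CPM, below SLC30A1 (123.5), MT1F (41.8), MTF1 (41.2) and MT1X (34.9). Its count was 2.85% to 3.84% of the MT2A count in the same library. Whether some of these were reads of MT2A was not tested. MT1L, a pseudogene between MT2A and MT1E, had 25 to 60 reads (5.49 ± 2.00 FPKM in control cells) and MT1P3 on chromosome 20 had 7 to 21 reads (4.18 ± 2.00 FPKM), levels like those of MTF1 and MT1A. None of these 3 passed the test for INO80 siRNA (adjusted p = 0.457 or more in edgeR, 0.0734 or more with the replicate block described below).

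**Figure D1:**
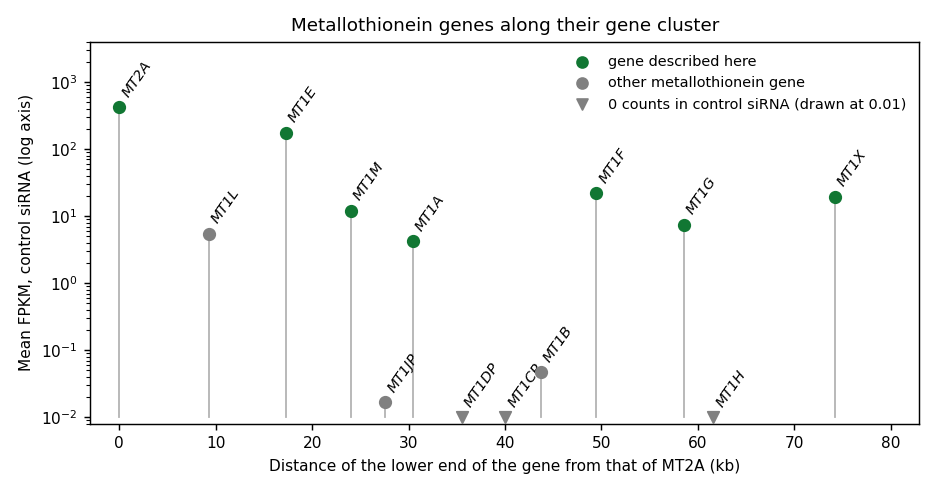
Mean FPKM in the 3 control siRNA libraries (log axis) of metallothionein genes and pseudogenes against the distance in kb of their lower end from that of MT2A, with triangles for genes without reads. MT2A (424 FPKM) and MT1E (175 FPKM) stand above the rest, and genes without reads lie between expressed ones. MT3 and MT4, on the other side of MT2A and without reads, are not drawn.

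SLC30A1, MTF1 and 6 of the 7 metallothioneins had positive log2 fold changes after INO80 siRNA, but the groups overlapped for every gene except SLC30A1. In the edgeR quasi-likelihood test with the treatment alone, 0 of the 9 genes passed an adjusted p of 0.05, where 1.75% of all 15343 tested genes did. DESeq2 called 0 of 9 (4.93% of all genes with an adjusted p), but it gave MT1A no adjusted p. With limma 0 of 9 were called with a pseudocount of 0.1 (0.417%) or 1 (0.305%). At an unadjusted p under 0.05, 2 of the 9 passed in edgeR, SLC30A1 and MT1X, against 16.4% of all genes. Without the filter on low counts edgeR called these 2 genes (2.43% of all genes). Libraries with the same replicate number resembled each other across the groups. A model with the replicate number as a block therefore compares the treatment within numbers. In that fit 4 of 9 genes rose, SLC30A1, MT1X, MT2A and MT1E, against 11.4% of all genes that rose, and 0 of 9 fell, against 13.4%. DESeq2 with the block called the same number, 4 of 9, again without an adjusted p for MT1A, against 5.56% that rose. Within same-number pairs, 6 of 9 genes were higher after INO80 siRNA in 3 of 3 pairs (26.8% of all genes) and 1, MT1A, was lower in 3 of 3 (25.9%).

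**Figure D2:**
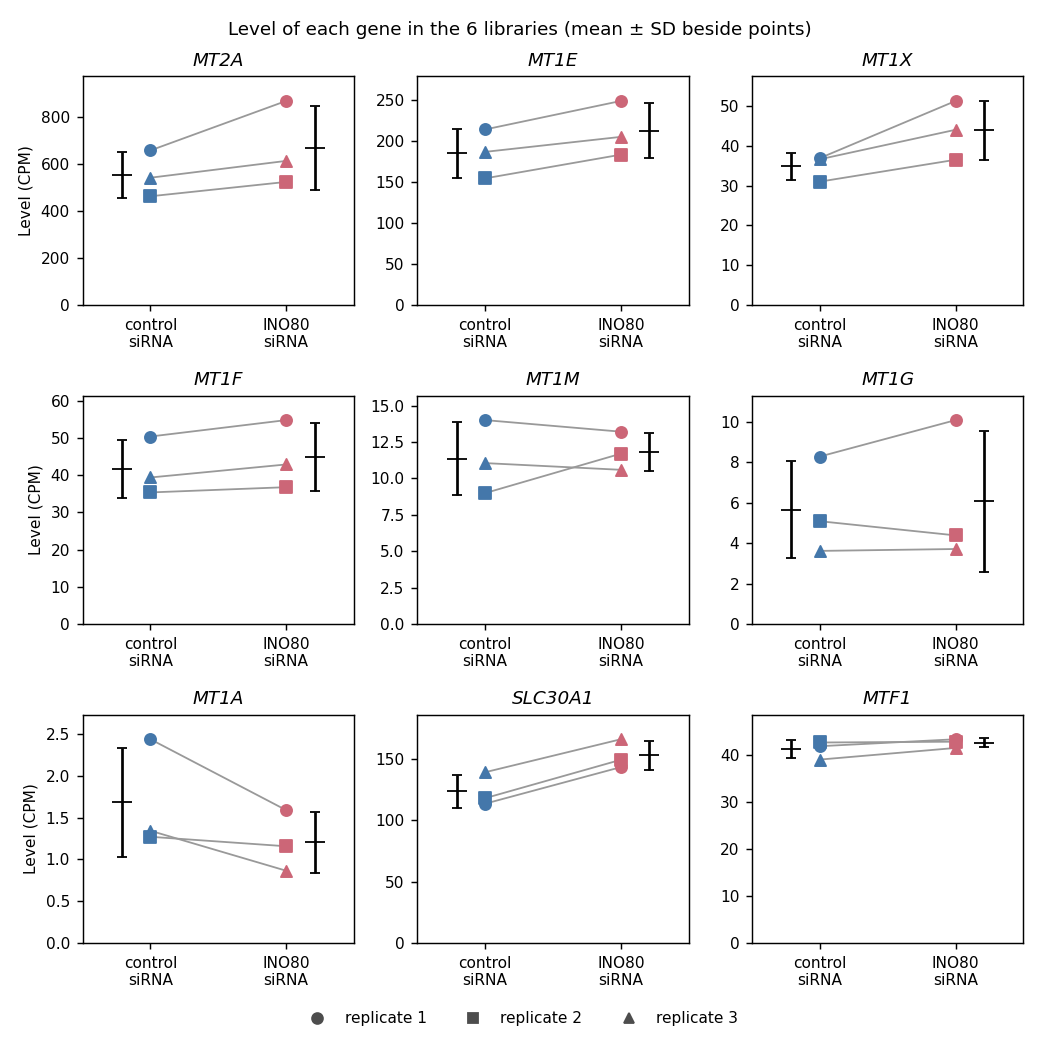
CPM of each of the 9 genes in every library, control siRNA in blue and INO80 siRNA in red, with grey lines joining libraries of the same replicate number and mean ± SD (n = 3) beside the points. SLC30A1 is the only one of these genes whose groups do not overlap, where 11.3% of all genes were higher without overlap. MT2A, MT1E, MT1X and MT1F run upward in all 3 pairs while replicate 1 stays above the others.

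SLC30A1, the zinc exporter, showed the clearest difference. It had 113.5, 118.0 and 139.1 CPM in control replicates 1, 2 and 3 and 143.2, 149.2 and 165.9 CPM after INO80 siRNA. Every knockdown library lay above every control library. This made SLC30A1 the only one of 9 genes with groups apart in that direction, a count near the share of all genes (11.3%). The mean went from 123.5 ± 13.7 to 152.8 ± 11.7 CPM (SD, n = 3). The log2 fold change was 0.31 (SE 0.0909), with an adjusted p of 0.142 from edgeR with the treatment alone and 1.34e-06 with the block (SE 0.0390). The exact permutation test gave p = 0.1 (two-sided), the smallest that 3 against 3 libraries allow. The increase was 26.2%, 26.5% and 19.3% in the pairs of replicates 1, 2 and 3. SLC30A1 has no near-identical copy among the transcripts searched.

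MT2A, the most abundant metallothionein, had 657.2, 462.2 and 541.1 CPM under control siRNA and 867.7, 523.2 and 612.6 CPM under INO80 siRNA. The groups overlapped, because control replicate 1 exceeded INO80 siRNA replicates 2 and 3. The means were 553.5 ± 98.1 and 667.9 ± 178.8 CPM (SD, n = 3), a log2 fold change of 0.27 (SE 0.188, adjusted p = 0.528). With the block the log2 fold change was 0.25 (SE 0.0376, adjusted p = 1.4e-05). Without INO80 siRNA replicate 1, the library with the highest MT2A level, the log2 fold change without the block was 0.038. Control replicate 1 stays in that fit without its partner, and without both replicate 1 libraries the value was 0.18. Leaving out control replicate 2 gave 0.16, and leaving out control replicate 1 or INO80 siRNA replicate 2 gave 0.41 and 0.42. Within pairs MT2A was higher by 32.0%, 13.2% and 13.2%.

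MT1E, the second most abundant copy, had 214.4, 154.6 and 187.0 CPM in control libraries and 249.3, 183.6 and 205.4 CPM in knockdown libraries. It overlapped between groups in the same manner as MT2A. Its log2 fold change was 0.20 without the block (SE 0.138, adjusted p = 0.529) and 0.20 with it (SE 0.0366, adjusted p = 0.000199). Without INO80 siRNA replicate 1 or control replicate 2, the value without the block was 0.070 and 0.084, and without control replicate 1 it was 0.32. Without both replicate 1 libraries it was 0.18. The pairs differed by 16.3%, 18.7% and 9.80%, all upward.

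MT1X had 37.0, 31.0 and 36.7 CPM in control libraries and 51.4, 36.6 and 44.1 CPM in knockdown libraries. Replicate 2 of the knockdown lay just below the highest control libraries, and the other knockdown libraries lay above all controls. MT1X had the largest increase of the 9 genes, a log2 fold change of 0.33 (SE 0.128, adjusted p = 0.243), and 0.33 with the block (SE 0.0600, adjusted p = 0.000212). The pairs were higher by 38.9%, 17.8% and 20.3%. This is also the copy with the most sequence shared with other transcripts.

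MT1F, MT1M and MT1G did not pass in either fit. MT1F had 50.4, 35.4 and 39.4 CPM against 54.8, 36.8 and 42.9 CPM, higher in 3 of 3 pairs but by 8.75%, 3.98% and 8.88% only (adjusted p = 0.815, and 0.193 with the block). MT1M had 14.0, 9.0 and 11.1 CPM against 13.2, 11.7 and 10.6 CPM, and its pairs went in different directions. MT1G had 8.28, 5.09 and 3.62 CPM against 10.1, 4.38 and 3.71 CPM, with a control SD of 2.39 around a mean of 5.66 CPM. For these copies the sign of the log2 fold change depended on single libraries. Without INO80 siRNA replicate 1 it was -0.063 for MT1F, -0.020 for MT1M and -0.47 for MT1G. Control replicate 1, the highest control for each of them, stays in that fit without its partner. Without both replicate 1 libraries the log2 fold change was 0.088 for MT1F, 0.15 for MT1M and -0.11 for MT1G. Over 7 fits with the block it ranged from 0.087 to 0.12 for MT1F, -0.073 to 0.15 for MT1M and -0.10 to 0.19 for MT1G.

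MT1A, the least abundant copy with 21 to 40 reads per library, had 2.44, 1.27 and 1.34 CPM in control libraries and 1.59, 1.16 and 0.866 CPM after INO80 siRNA. It was the only one of the 9 genes with a negative log2 fold change, -0.48 (SE 0.354, adjusted p = 0.565; with the block -0.46, SE 0.282, adjusted p = 0.254). At this depth a change of that size was not distinguishable from the spread.

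MTF1, the transcription factor, stood at 41.8, 42.6 and 39.0 CPM in control libraries and 43.3, 42.8 and 41.5 CPM in knockdown libraries. The values of all 6 libraries lay within a narrow range and the groups overlapped. The log2 fold change was 0.05 (SE 0.0664, adjusted p = 0.784), and 0.05 with the block (SE 0.0551, adjusted p = 0.587). MTF1 mRNA was thus measured with the smallest SE of the 9 genes in the fit without the block, and no difference was detected.

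**Figure D3:**
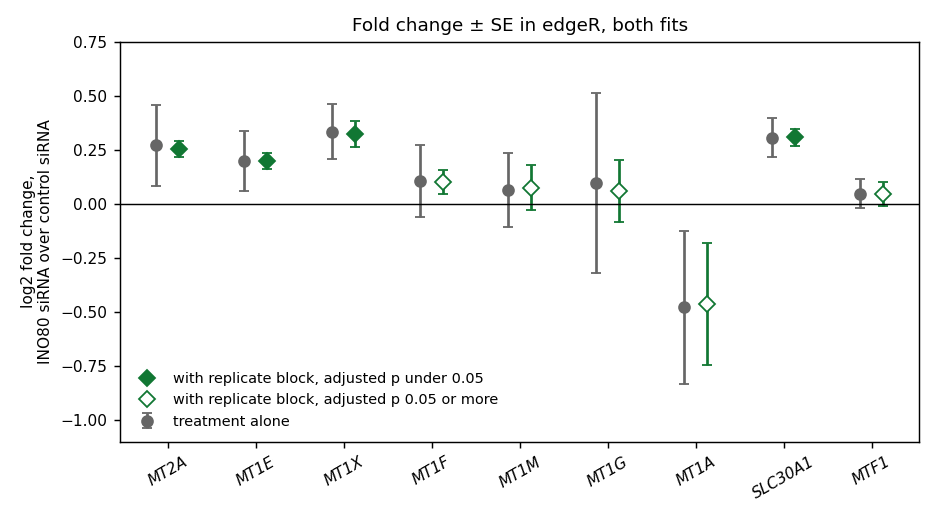
Log2 fold change ± SE of each gene, INO80 siRNA over control siRNA, in edgeR with the treatment alone (grey circles) and with the replicate block (green diamonds, filled where the adjusted p is under 0.05). The estimates hardly move between the fits while the SE shrinks, and MT2A, MT1E, MT1X and SLC30A1 pass with the block.

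Because reads of one copy may be assigned to another, the 7 metallothioneins were also summed. Their summed level was 834 ± 143 CPM in control libraries and 989 ± 233 CPM after INO80 siRNA (SD, n = 3), a ratio of 1.19. The ratio was 1.03 without INO80 siRNA replicate 1, where control replicate 1 is left without its partner. The pairs were higher by 26.9%, 14.2% and 12.2%. The sum made up 0.0830% of all counted reads under control siRNA and 0.0988% under INO80 siRNA. MT2A contributed 66.3% ± 0.440 of the summed counts in control and 67.2% ± 2.04 in knockdown libraries. MT1E contributed 22.2% ± 0.512 and 21.8% ± 1.60. The share of MT1X was 4.22% and 4.50%, higher in 3 of 3 pairs, while that of MT1F was 5.00% and 4.56%, lower in 3 of 3 pairs. The shares of the scarce copies MT1G (0.670% and 0.587%) and MT1A (0.198% and 0.122%) were also lower in 3 of 3 pairs, and MT1M contributed 1.35% and 1.23%. Over the 7 copies the median log2 fold change was 0.10, against 0.0066 over all tested genes.

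Replicate 1 stood further from the other numbers than INO80 siRNA from control siRNA, in log2 units, for every copy except MT1X. An F test of the replicate number, with the treatment in the model, passed for 7 of 9 genes, where 26.7% of all genes passed. These were 6 of the 7 metallothioneins and SLC30A1, while MT1A (adjusted p = 0.112) and MTF1 (adjusted p = 0.543) did not pass. Replicate 1 was the highest number for 7 of 7 metallothioneins. Of the 9 genes, 6 passed and were highest in replicate 1, against 12.5% of all genes. Relative to the mean of replicates 2 and 3, replicate 1 was higher by 2.17-fold for MT1G (adjusted p = 2.3e-06), 1.42-fold for MT2A (adjusted p = 2.1e-10), 1.36-fold for MT1F (adjusted p = 1.8e-06), 1.29-fold for MT1M, 1.27-fold for MT1E and 1.18-fold for MT1X. The median log2 shift of replicate 1 over the metallothioneins was 0.45, against a median of -0.0019 and a median absolute shift of 0.143 over all tested genes. The pseudogene MT2P1 also differed between numbers (adjusted p = 3.6e-08) and was highest in replicate 1. SLC30A1 went the other way. It was lowest in replicate 1, at 0.898 times the mean of replicates 2 and 3 (adjusted p = 0.000475), and highest in replicate 3.

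Other values moved with the replicate number. Replicate 1 had the fewest counted reads in each group. The 5 fibroblast markers summed to 415.4, 223.5 and 183.3 CPM in control replicates 1, 2 and 3 and to 384.7, 226.3 and 188.9 CPM in knockdown replicates. LUM, which encodes the matrix proteoglycan lumican, made up most of that sum (125.4 to 326.9 CPM). COL1A1 (39.6 to 60.9 CPM) lay above DCN, which encodes decorin (6.41 to 47.6 CPM), in every library. LUM, DCN and COL1A1 were highest in replicate 1 and passed the F test of the replicate number (adjusted p = 1.1e-15, 6.3e-17 and 0.00116). PDGFRB went the other way, at 0.462 times the mean of replicates 2 and 3 in replicate 1, without passing (adjusted p = 0.0973). COL1A2 had at most 2 reads. The summed level of the markers of tubular epithelium was also highest in replicate 1. It was 1816 CPM against 1627 and 1630 CPM in control libraries and 1838 CPM against 1507 and 1531 CPM in knockdown libraries. The part of these differences in the metallothionein levels was not tested.

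**Figure D4:**
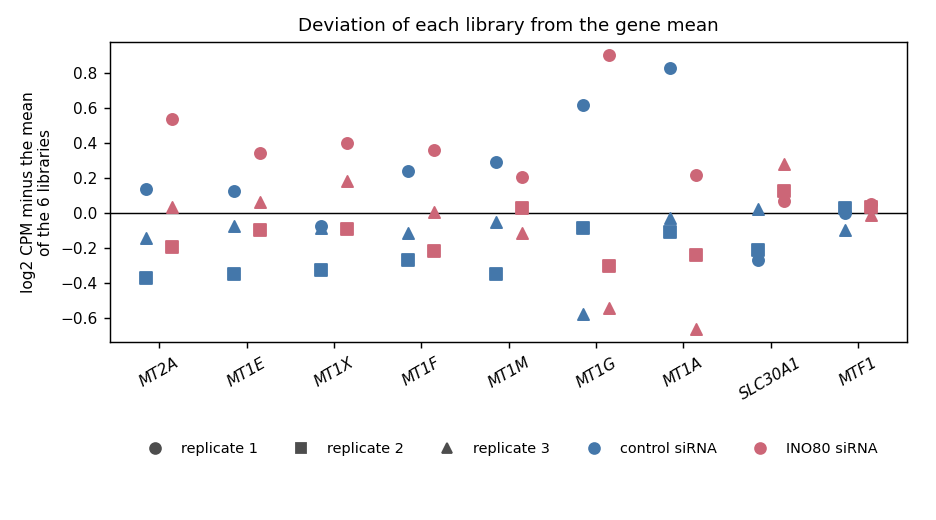
Log2 CPM of each library minus the mean of the 6 libraries, for each gene, with a symbol for each replicate number and a colour for each siRNA. The circles of replicate 1 lie above the other symbols of their group for all 7 metallothioneins, reach beyond 0.8 for MT1G and MT1A, and lie at the bottom for SLC30A1. MTF1 stays near 0.

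The profiles over the 6 libraries can also be compared with those of single genes among 13743 genes with at least 1 CPM on average. This is a description, since the points share libraries, depth and the spread between replicate numbers. MT1E (r = 0.976), MT1F (r = 0.959) and MT1X (r = 0.901) ran close to MT2A, and MT1M (r = 0.759), MT1G (r = 0.736) and MT1A (r = 0.376) less so. The 3 genes most like MT2A were MFSD10 (r = 0.997), PRR14 (r = 0.995) and NINJ1 (r = 0.994). SLC30A1 had an r of 0.183 with MT2A, and its nearest genes were DYM (r = 0.997), TNFRSF12A (r = 0.996) and IWS1 (r = 0.995). MTF1 was nearest to PLEKHM1 (r = 0.991), PPM1M (r = 0.987) and KCTD7 (r = 0.981).

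Genes of related pathways were counted next, from 7 lists with 72 genes in the table, of which 60 passed the filter on low counts. In the fit with the treatment alone 1 of 60 passed, against 1.75% of all genes. With the block 21 passed, of which 14 were higher and 7 lower, where 11.4% of all genes were higher and 13.4% lower. The count of lower genes was thus near the background, and that of higher genes depended on the test. DESeq2 with the block called 5 higher and 4 lower. Of all 11464 genes with an adjusted p in that fit, 637 were higher and 1080 lower. Among the other zinc exporters of the SLC30 family, 5 of 9 were tested and 0 passed in either fit. With the block the smallest p belonged to SLC30A4, which loads zinc into vesicles, at 4.11 ± 1.31 and 4.88 ± 0.614 CPM (adjusted p = 0.262 with the block). SLC30A8 and SLC30A10 had 0 reads.

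Of the 14 SLC39 zinc importers 11 were tested, and with the block 3 rose (11.4% of all genes) and 1 fell (13.4% of all genes). SLC39A3, a plasma membrane importer, went from 26.6 ± 1.19 to 33.1 ± 3.85 CPM without overlap (log2 fold change 0.30 with the block, adjusted p = 0.0013; 0.161 without it). SLC39A13 (log2 fold change 0.21) and SLC39A6 (0.14) rose by less. SLC39A14, which carries zinc, iron and manganese, fell from 195.0 ± 16.9 to 173.2 ± 15.4 CPM, with overlap between the groups. Its log2 fold change was -0.17 (adjusted p = 0.00113 with the block, 0.377 without). The median over the tested importers was 0.048 on the log2 scale.

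Copper handling genes, all 10 tested, gave 2 that rose (11.4% of all genes) and 1 that fell (13.4% of all genes) with the block. SLC31A1, the copper importer CTR1, went from 61.5 ± 2.20 to 68.0 ± 2.99 CPM. CCS, the copper chaperone of superoxide dismutase, went from 15.99 ± 1.29 to 19.3 ± 1.57 CPM. COX17, which delivers copper to cytochrome c oxidase, went from 24.2 ± 1.33 to 19.7 ± 1.72 CPM. The groups of these 3 genes did not overlap, where 11.3% of all genes were higher without overlap. The share of all genes lower without overlap is not given here. SCO1 and COMMD1 of this list were also lower without overlap but did not pass with the block (adjusted p = 0.599 and 0.0667). Of 9 tested iron genes, 2 rose and 1 fell with the block, against the same shares of all genes. FTL, the ferritin light chain, whose pseudogenes can share its reads, rose from 2070 ± 208 to 2426 ± 194 CPM (adjusted p = 1.45e-06 with the block, 0.248 without). STEAP3, an endosomal iron reductase, also rose, and SLC40A1, the iron exporter ferroportin, fell from 11.4 ± 2.66 to 9.18 ± 2.23 CPM.

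The metal and oxidant stress list held the only gene of these lists that passed without the block. HMOX1, heme oxygenase 1, fell from 94.8 ± 10.9 to 67.3 ± 3.34 CPM (log2 fold change -0.50, SE 0.0878, adjusted p = 0.0377). With any single library left out, 0 genes of the lists passed without the block. SLC7A11, which imports cystine, had 62.4 ± 16.6 and 34.3 ± 9.70 CPM and fell by 0.86 on the log2 scale with the block (adjusted p = 5.86e-11, 0.114 without the block). In the blocked fit GCLM and GCLC, the subunits of the enzyme that starts glutathione synthesis, NQO1 and the chaperone DNAJB1 rose, by 0.13 to 0.17 on the log2 scale. That made 4 of 12 higher and 2 of 12 lower, against 11.4% and 13.4% of all genes.

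Metallothioneins are also known to respond to glucocorticoids, so 8 genes induced by these hormones were listed, of which 7 were tested. With the block 2 rose (11.4% of all genes) and 1 fell (13.4% of all genes). CEBPD went from 23.7 ± 3.29 to 29.9 ± 2.09 CPM without overlap (log2 fold change 0.33, adjusted p = 0.000908 with the block, 0.189 without). SGK1 rose by 0.13 on the log2 scale, and DUSP1 fell by 0.19. Of the genes that flank the metallothionein cluster on chromosome 16, 6 of 9 were tested. NUDT21, a pre-mRNA cleavage factor subunit, fell from 227.5 ± 6.58 to 197.2 ± 16.3 CPM (adjusted p = 0.000174 with the block, 0.193 without).

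**Figure D5:**
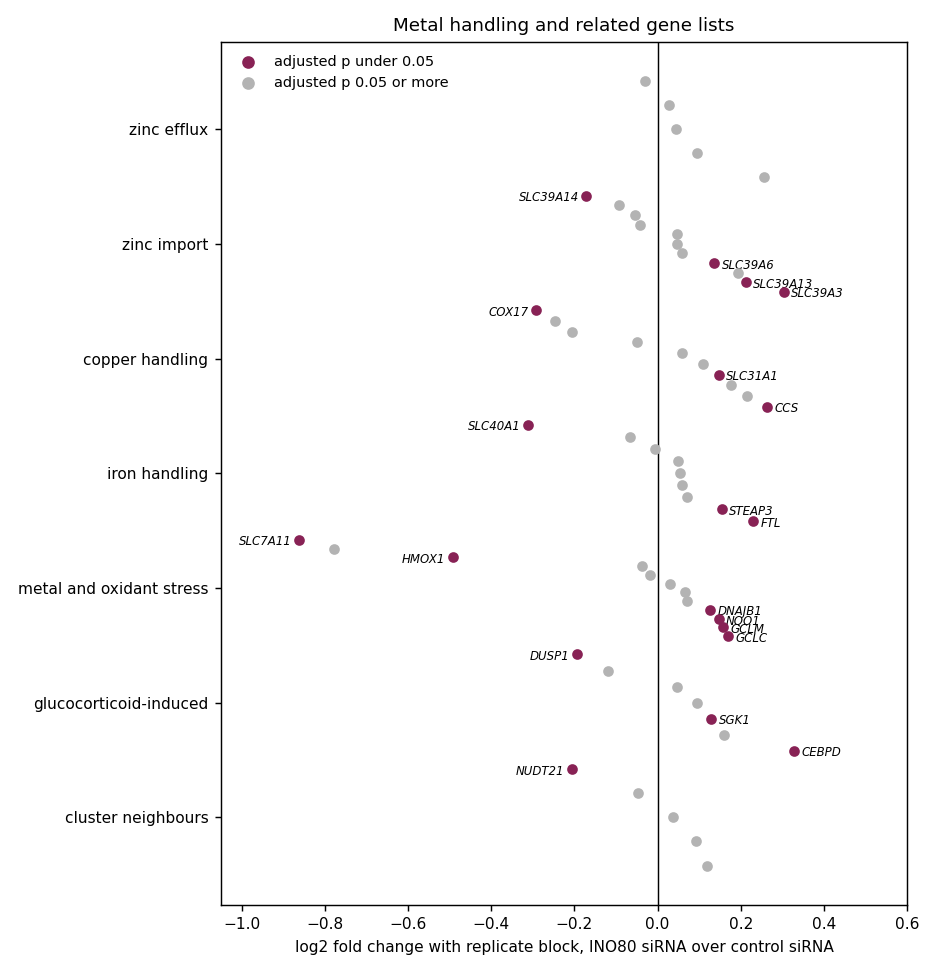
Log2 fold change in the fit with the replicate block, INO80 siRNA over control siRNA, of the tested genes described from the 7 lists, 1 point per gene, dark and named where the adjusted p is under 0.05. The named genes lie on both sides of 0, with HMOX1 and SLC7A11 farthest to the left among them.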

How the data were processed

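Poly-A RNA of 6 HK-2 libraries was sequenced as paired reads of 150 bases. The authors deposited 1 table with raw read counts and FPKM per gene. The submitters' processing notes list HISAT2 2.0.1, HTSeq and hg19 without giving their roles, while the paper's methods name ELAND and hg38. The coordinates in the table are GRCh37 (hg19), and each deposited FPKM is the count scaled by the exonic length and by the total counted reads of the library. All 9 genes passed edgeR's filterByExpr.

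Counts were tested in R 4.3.3 with edgeR 4.0.16 (quasi-likelihood test, TMM scaling, treatment alone), adjusted over 15343 genes by the Benjamini-Hochberg method at 0.05. Alternatives were the replicate number as a block, DESeq2 1.42.0, limma 3.58.1 on log2(FPKM + 0.1) or log2(FPKM + 1), other scaling and filters, and each library left out. Fits were tested on simulated data. Deviations from group means correlated across genes at 0.360 to 0.581 between same-number libraries and at -0.397 to 0.152 otherwise, so the numbers were taken to pair the libraries. With 16829273 to 23784599 counted reads, a count of 0 allows up to 3 reads, for counting error only.

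Named genes were the 9 members, INO80, up to 4 genes per list that passed in either fit (otherwise the one with the smallest p) and the 3 genes most correlated with MT2A, SLC30A1 or MTF1. GCLC, DNAJB1, SCO1 and COMMD1, the members of the lists without reads, other metallothioneins and marker genes were named after their values were seen. A coding sequence and a list gene are not reported here. The members and lists were chosen with earlier results of these data known. Transcripts were from GENCODE 44 (hg38). For metallothioneins, the protein-coding transcript with the most exons was used. The lengths of these transcripts were tried in place of the exonic lengths of the table after the data were seen, as were the blocked fits with pairs left out, with DESeq2, or with other scaling or filter.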

Additional observations from a re-analysis of the deposited data

How the results depend on the processing

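The replicate block moved the number of the 9 genes called from 0 to 4. It was also 4 in each blocked fit without replicate 1, 2 or 3, with DESeq2, with median-ratio scaling or without the filter on low counts, and MT1E, MT1X, MT2A and SLC30A1 were called in all 7 blocked fits. Their log2 fold changes in these fits were 0.18 to 0.23, 0.25 to 0.37, 0.18 to 0.29 and 0.29 to 0.34. Without the block, the fit with no filter on low counts called 2, SLC30A1 (adjusted p = 0.00992) and MT1X (adjusted p = 0.0416), and leaving out single libraries gave 0 each time. The block changed no other call among the 9 genes. The number of list genes called was 1, and 21 with the block, 20, 10 and 11 in the block without replicates 1, 2 and 3, 9 with DESeq2 and the block, 21 with the block and either median-ratio scaling or no filter, 3 with no filter alone, 0 with either limma fit, 2 without both replicate 1 libraries, and 0 with any single library left out, where HMOX1 lost its call. Fewer libraries enter the fits with libraries left out. The cause of these shifts was not tested.

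With single libraries left out, the log2 fold change ranged from -0.71 to -0.13 for MT1A, 0.07 to 0.32 for MT1E, -0.063 to 0.26 for MT1F, -0.47 to 0.46 for MT1G, -0.081 to 0.24 for MT1M, 0.21 to 0.45 for MT1X, 0.04 to 0.42 for MT2A, 0.01 to 0.07 for MTF1 and 0.24 to 0.40 for SLC30A1, and the ratio of the summed level from 1.03 to 1.30. MT1G also reversed without both replicate 1 libraries (-0.11) and in the block without replicate 1 (-0.10), and MT1M in the block without replicate 2 (-0.073). Each fit without a single library leaves its same-number partner unmatched in the other group. The number of the 9 genes that differed between replicate numbers was 7 with no filter or median-ratio scaling and 6 with a mean FPKM of at least 1. The median log2 fold change of all tested genes stayed at or under 0.018 in every fit.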
